A study of Xenopus laevis with 20 samples.

Results

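The immediate response to Gata5 was measured in explants of prospective ectoderm, the animal caps, cut from blastulae of the frog Xenopus laevis. Gata5-GR caps came from embryos given 10 ng of Gata5-GR mRNA at the one-cell stage, and the controls were uninjected caps. The comparison holds 8 of the 20 arrays of the study, 4 per group, chosen by the sample titles. In both groups the caps, explanted at stage 9, then spent 2.5 hours in cycloheximide and dexamethasone. The other arrays were 4 each of Gata4-GR, Dkk1 and Gata4-GR+Dkk1 caps, also injected with 10 ng of each mRNA, cut at stage 9 and given both drugs. No group received a control RNA, so a difference from uninjected caps includes any effect of the injection itself. The labels do not say whether same-numbered replicates came from the same batch of embryos or from separate ones. The main fit removed differences between replicate numbers, so its p-values rest on the spread left among arrays, which may in part be technical.

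Gata5 is a zinc-finger transcription factor that binds GATA motifs and, with Gata4 and Gata6, drives endoderm and heart development in vertebrates. In the fusion it is joined to the hormone-binding part of the glucocorticoid receptor, which holds the protein inactive until dexamethasone is added. Cycloheximide blocks translation, so transcripts that change only after dexamethasone need no newly made protein in between. No group was left without dexamethasone, so whether a row changed before or after the drugs were added was not tested. Dkk1, a secreted protein, blocks canonical Wnt signals at the cell surface and is not a GR fusion, so its effects can start before the drugs are added.

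No row is given a gene name here. The identifiers listed beside the signals did not behave as names of those signals. The X. laevis genome was duplicated, so that many genes exist as an L and an S copy, and over 1017 pairs of copies the median log2 signals correlated at -0.014 across genes, against a bound of 0.3 for names to be used. A further 629 pairs, listed with the same symbol but from separate sequence clusters, correlated at -0.094. The row listed for the reporter AsRed2, which frog caps lack, read 2031 to 5298 over the 20 arrays, and the row listed for DsRed1 read 2864 to 6501. The row listed for the reporter d2EGFP was dimmer, at 134.1 to 674.5. Rows are therefore numbered as they stand in the deposited table, starting at 1, no sequence is printed, and the ectodermal identity of the caps could not be checked on marker genes.

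The 8 arrays had median signals of 64.7 to 100.4, and 23.3% to 27.8% of rows read under 16 on each. In uninjected replicate 3 the first 9 rows of the table, which are listed as control rows, read 11.9% of their median over the arrays, against 76.1% to 130% on the other arrays. These rows were not tested. Within the 8 arrays, principal component 1 took up 29.5% of the variance, of which 95.5% lay between replicate numbers and 0.0765% between Gata5-GR and uninjected caps. By the rule chosen for this comparison, the replicate number was a block in every fit, except where the text says it was left out.

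Gata5-GR caps differed from uninjected caps in 7 of 15491 rows (0.0452%) at an adjusted p under 0.05 by limma, 6 higher (0.0387%) and 1 lower (0.00646%). Without normalization between arrays, which moved the median row by -0.12 on the log2 scale, 8 rows were called higher and 6 lower. With scaling to a common trimmed mean 6 were called higher and 0 lower. Before adjustment, 694 rows (4.48%) had a p under 0.05, 333 higher and 361 lower, where 775 would be expected with no change anywhere. The response that passed the test was thus small in number. In 4 of the 6 called higher rows every uninjected array read under 16, as in 18.6% of all rows. The uninjected arrays read 15.8 to 28.9 in row 11897 and 5.5 to 17.1 in row 15572, on both sides of 16. Levels below are log2(signal + 16) after quantile normalization, given as mean ± SD over 4 arrays, and a difference on this scale understates the change of dim rows.

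**Figure D1:**
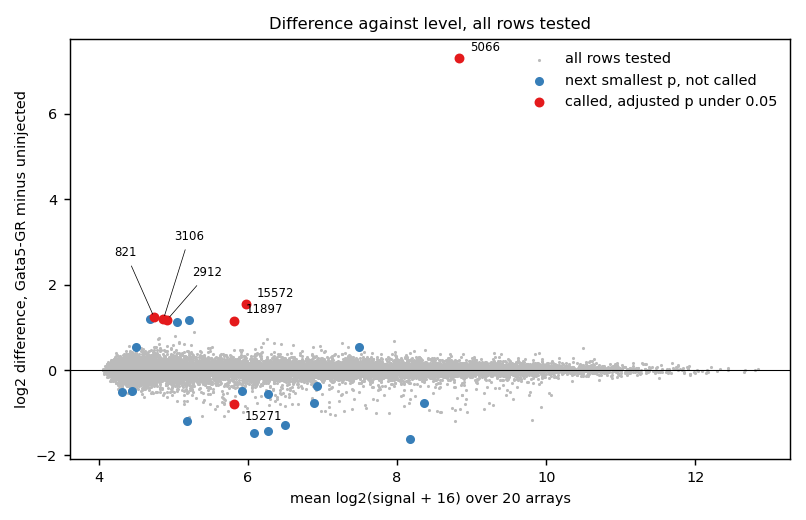
The log2 difference of Gata5-GR and uninjected caps (vertical axis) against the mean log2(signal + 16) over 20 arrays (horizontal axis) for all 15491 rows tested. The 7 called rows are red and numbered, and the 17 rows with the next smallest p are blue; row 5066 stands at 7.30, and 9 rows lie over 1 and 14 under -1.

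Row 5066 had the largest difference. It read 2.3, 1.3, 2.7 and 1.8 in uninjected replicates 1 to 4 and 1223, 4912, 1898 and 5421 in Gata5-GR replicates 1 to 4. Every Gata5-GR array lay far above every uninjected array, from a row that was close to the bottom of the scale to one among the bright rows. The level went from 4.16 ± 0.05 to 11.46 ± 0.90 (SD, n = 4), a log2 difference of 7.30 (standard error, SE, 0.30; limma adjusted p = 2.26e-10). With a pseudocount of 1 in place of 16 the difference was 9.95, and with 64 it was 5.45. Gata5-GR replicates 2 and 4 were the high ones and replicates 1 and 3 the low ones. In Gata4-GR arrays, with 1710, 2800, 1864 and 6272, and in Dkk1 arrays, with 30.8, 91.4, 45.0 and 198, the replicate numbers came in the same order, lowest in 1 and highest in 4. Gata4-GR+Dkk1 arrays, with 1430, 1417, 868.4 and 2124, did not follow it: replicate 3 was lowest and replicate 4 again highest. Every Dkk1 array, without a Gata fusion, also lay above every uninjected array, with a mean log2 difference of 2.53. Whether injection itself adds to the difference between Gata5-GR and uninjected caps was not tested. Whether this row detects the injected RNA or a transcript of the caps was not tested.

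Row 11897 rose with Gata5-GR, with little spread. Its signals were 17.7, 15.8, 17.5 and 28.9 in uninjected arrays and 50.3, 52.2, 58.1 and 75.8 in Gata5-GR arrays. The groups did not overlap, and the differences within the 4 replicate numbers lay between 1.02 and 1.30. The level was 5.07 ± 0.13 in uninjected and 6.23 ± 0.17 in Gata5-GR caps (SD, n = 4), a log2 difference of 1.16 (SE 0.12; limma adjusted p = 0.000203). Dkk1 arrays, at 5.18 ± 0.15, overlapped the uninjected ones. Gata4-GR arrays read 45.6 to 117 and Gata4-GR+Dkk1 arrays 32.0 to 75.2. The row thus read high in the 3 groups with a Gata fusion and low in the 2 groups without one.

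Rows 821, 3106 and 2912 rose by nearly equal amounts. In row 821 the uninjected arrays read 0.7, 5.0, 6.5 and 1.8 and the Gata5-GR arrays 18.9, 32.1, 37.1 and 32.2. Its log2 difference was 1.23 (SE 0.16; limma adjusted p = 0.00185), and the 4 within-number differences ran from 1.17 to 1.40. All Gata5-GR arrays were above all uninjected ones. Row 3106 read 9.4, 5.3, 5.3 and 3.4 in uninjected and 17.8, 55.7, 29.2 and 38.9 in Gata5-GR arrays, a log2 difference of 1.19 (SE 0.17; limma adjusted p = 0.00646). Row 2912 read 1.2, 12.4, 10.2 and 6.6 in uninjected and 25.1, 50.4, 54.0 and 21.7 in Gata5-GR arrays, a log2 difference of 1.18 (SE 0.17; limma adjusted p = 0.0084). In these rows too the groups did not overlap, but the called rows were picked for small p on the same arrays. The uninjected signals in all of them lay below the added 16, so the size of the change rests on that constant: with a pseudocount of 1 the log2 differences were 3.02, 2.44 and 2.43. The call of row 2912 was lost without the replicate block (limma adjusted p = 0.283), with a pseudocount of 1, with the 8 arrays fitted alone, and without replicate 1 of either group or Gata5-GR replicate 3.

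Gata4-GR caps held these same rows at levels between those of uninjected and Gata5-GR caps. Row 821 stood at 4.27 ± 0.20 in uninjected, 4.86 ± 0.43 in Gata4-GR and 5.50 ± 0.18 in Gata5-GR caps (SD, n = 4). Row 3106 stood at 4.42 ± 0.16, 5.03 ± 0.33 and 5.61 ± 0.40 in the same order, and row 2912 at 4.51 ± 0.33, 5.07 ± 0.44 and 5.69 ± 0.42. In each of the 3 rows the Gata4-GR arrays overlapped both neighbours in that order. The overlap with uninjected arrays came from Gata4-GR replicate 1 alone, at 4.44, 4.57 and 4.60 against uninjected maxima of 4.47, 4.62 and 4.85. That array stood apart more widely, as described below for the direct comparison with Gata5-GR. The overlap with Gata5-GR arrays came from Gata4-GR replicate 4 alone in rows 821 and 3106 and from replicate 2 alone in row 2912. Dkk1 caps were at 4.20 ± 0.14, 4.49 ± 0.16 and 4.47 ± 0.31, overlapping the uninjected arrays.

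Row 15572 rose with Gata5-GR but was not highest there. It read 12.6, 16.1, 5.5 and 17.1 in uninjected arrays and 28.4, 68.8, 63.4 and 130.7 in Gata5-GR arrays, a log2 difference of 1.55 (SE 0.18; limma adjusted p = 0.000531). Dkk1 arrays read 97.2, 142.9, 89.6 and 132.2, Gata4-GR+Dkk1 arrays 31.6 to 88.8 and Gata4-GR arrays 18 to 35.9. Every injected array was above every uninjected one, and the order of the group means, from the lowest, was uninjected, Gata4-GR, Gata4-GR+Dkk1, Gata5-GR and Dkk1. Gata4-GR+Dkk1 and Gata5-GR overlapped, at 6.30 ± 0.38 and 6.33 ± 0.61 (SD, n = 4). Injection and Gata5 activity cannot be told apart in this row. With the 8 arrays fitted alone, neither this row nor row 3106 was called.

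Row 15271 was the 1 row called lower. Its signals were 96.9, 45.7, 68.6 and 73.2 in uninjected arrays and 31.3, 21.2, 31.2 and 29.2 in Gata5-GR arrays, with no overlap. In normalized level, 0.762% of all rows were apart in that direction. The level was 6.27 ± 0.23 in uninjected and 5.48 ± 0.21 in Gata5-GR caps (SD, n = 4), a log2 difference of -0.80 (SE 0.12; limma adjusted p = 0.0118). The within-number differences, from -0.84 to -0.73, were nearly equal although the replicate numbers differed in level. Gata4-GR arrays, at 5.47 ± 0.21, had a level like that of Gata5-GR, and Dkk1 arrays, at 6.14 ± 0.18, overlapped the uninjected ones. Gata4-GR+Dkk1 arrays, at 5.71 ± 0.23, lay below all Dkk1 arrays in normalized level. In RNA from whole caps, fewer cells that hold a transcript and less of it per cell cannot be told apart. The call was lost without the block (limma adjusted p = 0.098), with scaling to a common trimmed mean, with the 8 arrays fitted alone, and without uninjected replicate 1 or Gata5-GR replicate 2, 3 or 4.

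**Figure D2:**
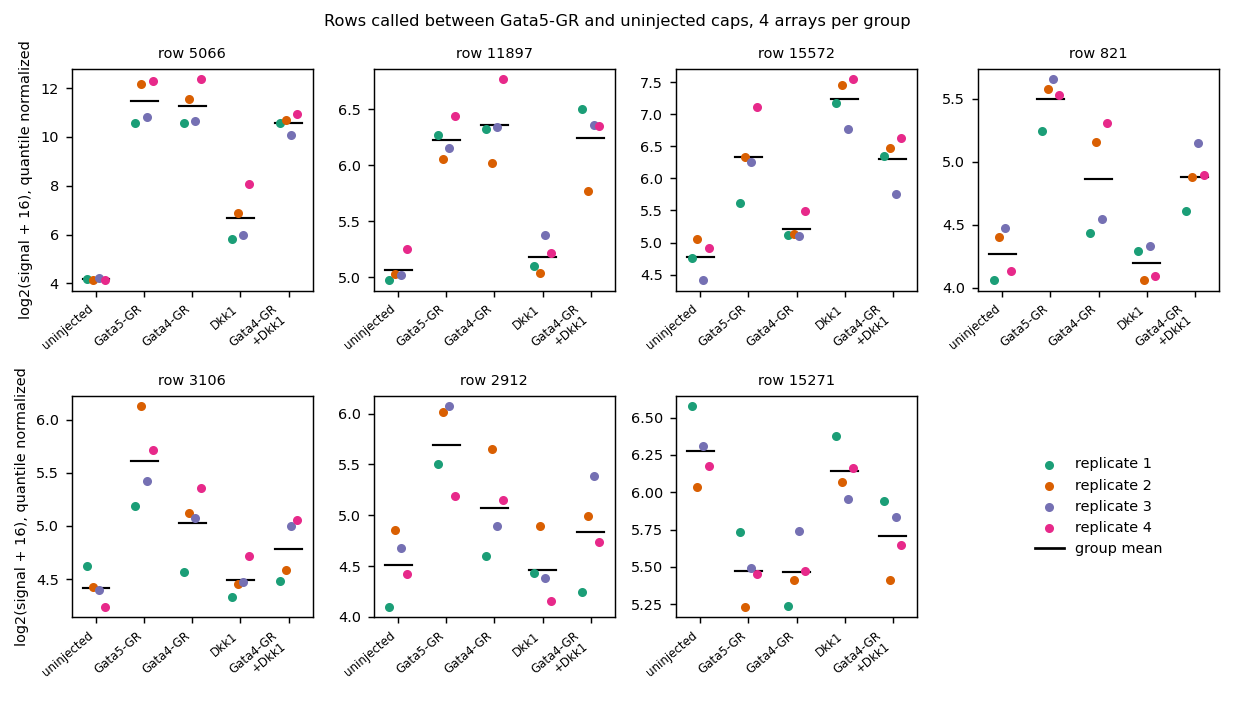
Levels of the 7 called rows in the 5 groups, as log2(signal + 16) after quantile normalization (vertical axis of each panel, scaled per row), 1 point per array coloured by replicate number, with bars at the group means. Rows 5066 and 11897 were high in the 3 groups with a Gata fusion, rows 821, 3106 and 2912 were highest in Gata5-GR, row 15572 was highest in Dkk1, and row 15271 was low with either Gata fusion.

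The 17 rows with the next smallest p did not pass the test (limma adjusted p from 0.0863 to 0.214) and are given as values. Of these, 5 had a higher and 12 a lower mean in Gata5-GR caps. In all 24 rows the 4 within-number differences had 1 direction, where 6.96% of all rows were higher and 5.62% lower in 4 of 4 replicate numbers, but the rows were picked for their small p. Rows 4612, 1175 and 3104 had log2 differences of 1.13, 1.16 and 1.19 with standard errors of 0.21, 0.23 and 0.23. Row 4612 read 0.7 to 6.9 in uninjected and 13.3 to 53.1 in Gata5-GR arrays, and Gata4-GR arrays read 20.5 to 64.1, so its level did not stand out in Gata5-GR. Row 1175 read 6.0 to 14.4 in uninjected, 17.2 to 75.7 in Gata5-GR and 17.1 to 89.8 in Gata4-GR arrays. In row 3104 the Gata5-GR arrays, at 18.8 to 51.8, lay above all uninjected arrays (1.2 to 11.6) and also above all Gata4-GR arrays (2.7 to 15.4), a separation that 0.891% of all rows had in that direction between Gata5-GR and Gata4-GR. These 3 rows and the 6 called higher rows were all the rows with a log2 difference over 1, 9 of 15491 (0.0581%).

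Below -1 there were 14 rows (0.0904%), and none was called. In all 14, uninjected replicate 4 was the highest of the 4 uninjected arrays. Without that array 2 of the 14 stayed under -1, their median difference went from -1.14 to -0.84, and 3 of all rows were under -1. Without uninjected replicate 3 there were 49, and all 14 stayed. Leaving out any 1 of the 8 arrays left 8 to 13 rows over 1. The number of rows far down in Gata5-GR caps therefore moved with single arrays of either group, from 3 to 49, and the number far up moved less.

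Row 657 had the lowest difference, -1.63 (SE 0.30; limma adjusted p = 0.0863). It read 772.9, 231.7, 392.1 and 1858 in uninjected arrays and 176.3, 83.5, 238.9 and 184.0 in Gata5-GR arrays, with 1 uninjected array, replicate 2, just below the highest Gata5-GR signal before normalization. After normalization the groups did not overlap, as in 0.762% of all rows in that direction. Without uninjected replicate 4 the difference was -1.23 (limma adjusted p = 0.161), and without uninjected replicate 3 it was -1.91 and passed (limma adjusted p = 0.0221). Row 656, the position just before it in the table, read 208.0, 51.9, 79.6 and 474.3 in uninjected and 51.5, 19.2, 59.4 and 28.8 in Gata5-GR arrays, a log2 difference of -1.44 with a standard error of 0.32. Its groups overlapped, and its highest array was again uninjected replicate 4. In row 604 the uninjected arrays read 79.1, 86.2, 65.8 and 366.2 and the Gata5-GR arrays 17.8, 26.6, 37.2 and 28.3, a log2 difference of -1.48 with a standard error of 0.31, or -1.04 without uninjected replicate 4. Row 3201 had a log2 difference of -1.20 with a standard error of 0.22 and row 555 one of -1.29 with a standard error of 0.26. Without uninjected replicate 4 these were -0.88 and -0.91.

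**Figure D3:**
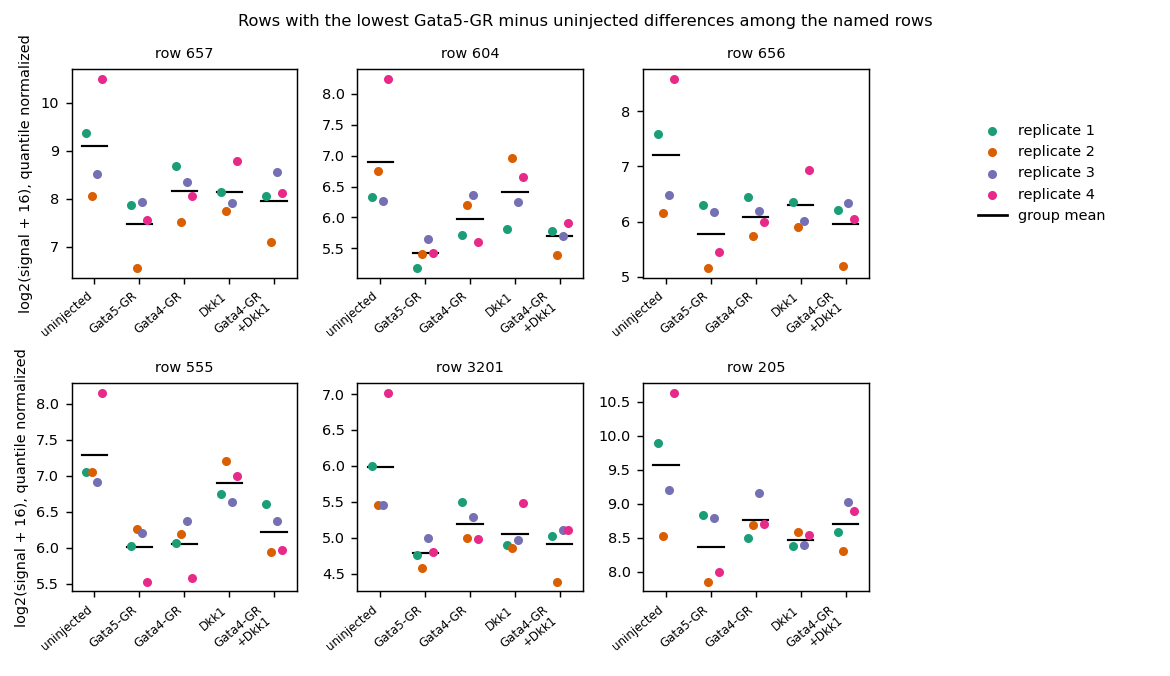
Levels of the 6 named rows with the lowest differences, as log2(signal + 16) after quantile normalization (vertical axis of each panel, scaled per row), 1 point per array coloured by replicate number, with bars at the group means. Uninjected replicate 4 is the highest point of all 6 rows, and none of them was called; the differences run from -1.63 in row 657 to -1.19 in row 205.

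In rows 1906 and 7743 uninjected replicate 4 was not the highest array, and without it the differences were -0.73 and -0.82. In row 1906 the uninjected arrays read 162.6, 101.1, 200 and 165.3 and the Gata5-GR arrays 58.5, 70.4, 97.0 and 72.3, a log2 difference of -0.76 with a standard error of 0.15. In row 7743 they read 548.7, 336.2, 511.4 and 405.8 against 236.2, 233.4, 331.7 and 135.0, a log2 difference of -0.78 with a standard error of 0.17. In both rows the groups were apart and each within-number difference was at or below -0.52. Row 4378 went from 76.0 to 105.3 in uninjected to 42.9 to 52.1 in Gata5-GR arrays, a log2 difference of -0.57 with a standard error of 0.12. Rows 2876 and 11160 were dim everywhere, and in both all Gata5-GR arrays, at 1.4 to 2.8 and 0.8 to 1.3, lay below all Gata4-GR arrays, as did 0.884% of all rows. The remaining rows of the 24 were 11973 and 2882, higher by 0.54 and 0.53, and 5974 and 2140, lower, at -0.48 and -0.37. Of the rows brighter than the median row, the highest differences after row 5066 were 0.69 in row 14395, 0.62 in row 2234 and 0.59 in row 12650, and the lowest after row 657 were -1.19 in row 205, -1.18 in row 2704 and -1.06 in row 3003. None of these passed (limma adjusted p from 0.382 to 1).

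The study holds a further comparison with a Gata fusion that shares no array with this one: Gata4-GR+Dkk1 against Dkk1, in which both groups were injected. At 10 ng of each mRNA, the Gata4-GR+Dkk1 caps received more RNA than the Dkk1 caps. Among the 24 rows, 10 of the 11 higher rows were also higher there in mean, where 49.1% of all rows were, and 11 of the 13 lower rows were lower, where 50.9% of all rows were. Differences lay above 0 in 4 of 4 replicate numbers in 8 of the 11 rows, against 6.34% of all rows, and below 0 in 5 of the 13, against 5.82%. Gata4-GR+Dkk1 and Dkk1 caps differed by 3.88 in row 5066 (limma adjusted p = 5.3e-06) and by 1.06 in row 11897 (limma adjusted p = 0.000683). Those were the rows called in both comparisons, 28.6% of the 7 Gata5-GR calls and 50% of the 4 calls made there (0.0258% of all rows; 3.67% had an unadjusted p under 0.05). The other called rows had smaller differences there, 0.69 in row 821, 0.37 in row 2912, 0.29 in row 3106 and -0.43 in row 15271, and none passed. Row 4612 had 1.25 there (limma adjusted p = 0.0604), about its size with Gata5-GR. Row 15572 went the other way, at -0.93.

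With more rows taken in order of p, the share with the same direction in both comparisons came down towards that of all rows. It was 88% in the first 25 rows, 70% in the first 100 and 62% in the first 400, against 52% over all 15491. Among the first 100, 25 of 41 higher rows (61.0%) and 45 of 59 lower rows (76.3%) had the same direction. Over all rows it was 51.1% of the higher and 53.0% of the lower rows. The median difference of the 41 higher rows was 0.53 with Gata5-GR and 0.06 with Gata4-GR+Dkk1, and that of the 59 lower rows -0.57 and -0.11. These shares are descriptions over rows that are not independent, and the comparisons share replicate numbers and the fit. With each array centred on its median in place of quantile normalization, the shares were 80%, 59% and 51.25%, against 48.2% over all rows. By direction, the higher rows then had 11 of 15, 27 of 60 and 95 of 257, against 40.7% of all higher rows. The last of these, 37.0%, was below that background. The lower rows then had 9 of 10, 32 of 40 and 110 of 143, against 57.8% of all lower rows. Among rows brighter than the median row, 51.6% of all higher rows had the same direction. Of the higher rows, 3 of 8 had it in the first 25 and 24 of 49 (49.0%) in the first 100, below that background. In the first 400 it was 121 of 216 (56.0%), above it. Of the lower rows there, it was 15 of 17, 40 of 51 and 129 of 184, against 53.5%.

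**Figure D4:**
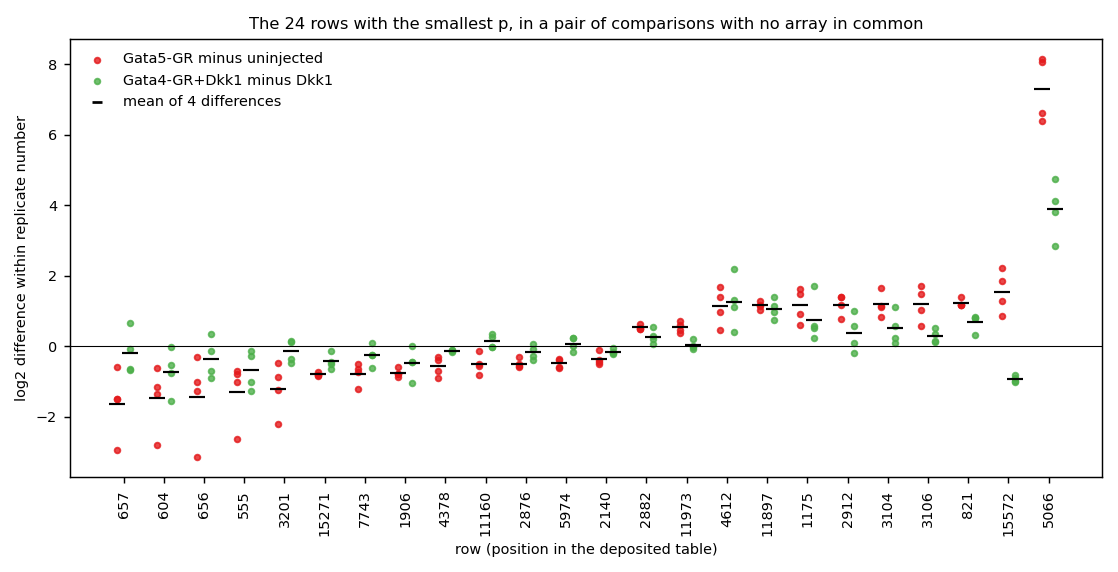
Differences within each replicate number (vertical axis, log2 scale) for the 24 rows with the smallest p (horizontal axis, ordered by their Gata5-GR difference), red for Gata5-GR minus uninjected and green for Gata4-GR+Dkk1 minus Dkk1, with bars at the means of 4. The red points choose the rows; the green means lie on the same side of 0 in 10 of 11 higher and 11 of 13 lower rows, and row 15572 is on the other side.

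The direct comparison of Gata5-GR with Gata4-GR caps asked whether these factors differ in their immediate effects. By limma 0 of 15491 rows (0%) were called, with 1309 (8.45%) at an unadjusted p under 0.05. Gata4-GR replicate 1 stood apart from the other arrays: its mean correlation with them was 0.959, against 0.972 to 0.980 for every other array. On this array a second run of rows listed as control rows, not tested, read on average 1.71 above the median in log2 signal. On the other arrays that value was -0.59 to 0.37. The deviations of Gata4-GR replicate 1 also followed those of the same-numbered Gata5-GR array less, at 0.135, than in the other replicate numbers, at 0.429 to 0.570. Without it 0 rows were again called by limma, and 818 (5.28%) had an unadjusted p under 0.05. For row 5066 the log2 difference was 0.18, with a 95% interval of -0.45 to 0.81, for row 11897 -0.13 (-0.38 to 0.12), and for row 15271 0.01 (-0.25 to 0.27). These intervals allow differences of some size in either direction. Rows 821, 2912 and 3106 were higher with Gata5-GR by 0.64 (0.31 to 0.97), 0.62 (0.25 to 0.99) and 0.58 (0.22 to 0.94), none past the test (limma adjusted p = 0.57 for all 3). Row 15572 was higher by 1.12 (0.75 to 1.49; limma adjusted p = 0.109), with all Gata5-GR arrays above all Gata4-GR arrays in normalized level. Without Gata4-GR replicate 1 the differences of these last 4 rows were 0.55, 0.56, 0.48 and 1.15, and that of row 15271 was -0.15 (-0.34 to 0.04). The limma adjusted p was then 0.914 for rows 821, 2912 and 3106 and 0.459 for row 15572. Row 15572 was called with each array centred on its median and without Gata5-GR replicate 1. These rows had been chosen on the same Gata5-GR arrays, so their differences from Gata4-GR are not independent of the choice.

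Dkk1 caps served as an injected group without a Gata fusion. Against them, Gata5-GR caps had 5 rows called higher (0.0323%) and 1 lower (0.00646%) by limma, with 5.12% of all rows at an unadjusted p under 0.05. The higher rows were 5066, by 4.77 (limma adjusted p = 2.17e-07), 11897, by 1.05 (0.000857), 821, by 1.30 (0.00114), 2912, by 1.23 (0.00769), and 3106, by 1.12 (0.0144). For rows 11897, 821, 2912 and 3106 these differences were near those from uninjected caps, which were 1.16, 1.23, 1.18 and 1.19. The same Gata5-GR arrays had chosen these rows, so the likeness is not independent of that choice. For row 5066 the difference was smaller than the 7.30 from uninjected caps, since Dkk1 arrays read above the uninjected ones. Row 15271 had -0.67 and did not pass (limma adjusted p = 0.0764). With each array centred on its median, 2 rows were called higher and 0 lower, and without normalization 9 and 1.

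The lower row was 2234, at -2.93 (limma adjusted p = 0.0422). It read 458.5 to 645.4 in the Dkk1 arrays and 23.7, 83.8, 373.6 and 22.7 in Gata5-GR replicates 1 to 4. Gata5-GR replicate 3 thus read near the Dkk1 arrays in this row, and the other Gata5-GR arrays did not. In uninjected arrays it read 49.1, 25.6, 18.8 and 135.2, in Gata4-GR arrays 22.4 to 54.3 and in Gata4-GR+Dkk1 arrays 466.2 to 612.3. Dkk1 caps were above uninjected caps by 3.55 in this row (limma adjusted p = 0.00785). The difference of Gata5-GR from uninjected caps, 0.62 with a standard error of 0.49 over all 4 replicates, was -0.09 without Gata5-GR replicate 3. The Dkk1 call was lost without Dkk1 replicate 1, 2, 3 or 4 and without Gata5-GR replicate 1, 2 or 4, and without Gata5-GR replicate 3 it was kept.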

How the data were processed

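Biotin-labelled cRNA from animal caps was hybridised to 1-colour oligonucleotide arrays, 20 in all, per the labels' protocols. The deposited values are intensity per probe set on a linear scale, and the sources used here do not name the summarising software. Their trimmed means differ between arrays, so 16 was added, log2 was taken and the arrays were quantile normalized. Of 15611 rows, the 120 listed as control rows were left out. As the identifiers did not pass the check, control signals may stand among the rows tested. limma 3.58.1 (R 4.3.3) was fitted to all 20 arrays with a mean per group and the replicate number as a fixed block, with Benjamini-Hochberg adjustment over 15491 rows. The groups were taken from the sample titles, and figures were drawn with matplotlib 3.10.9. The script was tested on simulated data.

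The numbers pair the arrays: the deviations of same-numbered Gata5-GR and uninjected arrays from their group means correlated at 0.576, 0.586, 0.380 and 0.537 across rows. The text names the rows called at an adjusted p under 0.05, then the rows with the next smallest p up to 24 in all, and, among rows brighter than the median row, the 4 with the highest and the 4 with the lowest difference. Gene lists were not used, because the identifiers did not pass the check on paired copies. The comparison, the lists and the rules were chosen with earlier results of these data known.

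Alternatives were the block, the pseudocount (1 and 64), the normalization, filters at the 25th and 50th percentile of mean level, the arrays in the fit, the rows listed as controls, array weights, an intensity trend, a threshold of 0.01 and each array left out in turn. Added after seeing the data were leaving out uninjected replicate 3 for the shares of direction, and leaving out Gata4-GR replicate 1 for the count against Dkk1 and for the differences from Gata4-GR. The number of arrays limits the precision.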

Additional observations from a re-analysis of the deposited data

Results flagged for a closer look

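In row 555, uninjected replicate 4 stood apart from the other uninjected arrays, at 8.15 on the log2 scale against 6.92 to 7.06, from signals of 342.7 against 109.7 to 140.1. Of 60 groups of 4 arrays looked at in the named rows, this was the only one with such a gap. Chance alone gives about 3 in independent groups, but these rows were mostly picked for small p and some have like profiles. The count can therefore not be set against chance.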

How the results depend on the processing

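Without the replicate block, 5 rows were called between Gata5-GR and uninjected caps in place of 7, and 5 in place of 6 between Gata5-GR and Dkk1. Against uninjected caps the count was 13 with median centring (11 higher, 2 lower), 14 without normalization (8 higher, 6 lower), 1 among rows above the 50th percentile, and 3 with the arrays of the compared groups alone, with or without the block. Leaving out 1 array gave 5 to 9. Rows 5066, 821 and 11897 were called under every setting that tested them. Row 657 was called with median centring, without normalization, with array weights and without uninjected replicate 3. Against Gata4-GR, the count of 0 became 1 with a pseudocount of 1 (row 9871, lower) and with median centring (row 15572, higher), and it was 0 to 1 with 1 array left out. Against Dkk1 the count of 6 became 2 with median centring, 10 without normalization, 3 above the 25th and 1 above the 50th percentile, 1 with the compared groups alone, 3 with these and no block, and 10 with array weights. It was 3 to 9 with 1 array left out, 3 without Dkk1 replicate 3 or 4. The shares with 1 direction moved to 59% of 100 rows and 51.25% of 400 with median centring. Over the 30 named rows, 598 of 636 combinations of row and setting kept direction and side of the threshold. Most of these rows were not called in the main fit, so this count says little about the calls. A call was lost in 19 combinations. These were row 15271 in 8 of 21 settings, row 2912 in 7 of 21, and rows 3106 and 15572 in 2 each. The difference of row 2234 changed sign, to -0.0937, without Gata5-GR replicate 3, and ran up to 1.11 with another array left out. Where the cause of such a change is more than the fewer rows or arrays, the cause was not tested. Dim rows limit what can be read: 23.3% to 27.8% of rows on an array lay under the added 16.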

Other observations

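Some named rows lay close together in the table and had like profiles. Rows 656 and 657 correlated at 0.97 over the 20 arrays, while the median over all 15490 pairs of neighbouring rows was 0.02, with 5% of pairs above 0.60. Rows 3104 and 3106, with 1 row between them, correlated at 0.80. Over all 15489 pairs so placed the median was 0.01, with 5% of pairs above 0.53. With the replicate means removed, rows 656 and 657 correlated at 0.96 and rows 3104 and 3106 at 0.85. Among the 24 rows, the row most like row 5066 was row 11897 (0.90), the row most like row 821 was row 2912 (0.87), and the row most like row 555 was row 604 (0.88). The arrays behind these correlations share replicate numbers and groups, and the rows were chosen on the same groups, so the values are descriptions.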
